A study of Mus musculus with 2 samples.

Results

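Aiolos is a zinc finger transcription factor of the Ikaros family, encoded by Ikzf3. Its binding in cultured mouse natural killer (NK) cells is described here at 4 genes, Dad1, Prss2, Lef1 and Cd5, to which the authors' annotation assigned 7 of the 1404 Aiolos peaks. Dad1 and Prss2 are not T cell genes themselves. Dad1 encodes a subunit of the oligosaccharyltransferase of the endoplasmic reticulum and Prss2 a trypsinogen, and they were included because the peaks credited to them fall at the loci of the T cell receptor alpha and delta chains and of the beta chain. Lef1 encodes an HMG box transcription factor that binds beta-catenin and acts in early T cell development, and Cd5 encodes a scavenger receptor family protein on the surface of T cells that dampens antigen receptor signals. The members were thus chosen by the gene name attached to a peak and by what the genes are, so the presence and place of these peaks are a description and carry no test.

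The binding was measured by CUT&RUN, in which micrococcal nuclease joined to protein A is brought to an antibody on chromatin, and the fragments it releases are sequenced. There were 2 libraries from NK cells of mouse spleen, 1 made with the Aiolos antibody and 1 made with no primary antibody. For both, the cells were grown in medium that held interleukin-15 at 50 ng/ml, and 500000 or more were reached per sample. The labels give no strain, age or sex, and no manipulation of Aiolos itself. Each group is a single library without a replicate, so the intervals below are exact Poisson counting intervals at 95%, which cover counting error only and would be too narrow if several reads came from 1 molecule.

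T cell receptor genes are assembled in developing T cells from separate variable (V), diversity (D) and joining (J) segments that lie upstream of a constant region. The enhancer of the alpha chain gene is known to lie past its constant region, on the side of Dad1. The enhancer of the beta chain gene is known to lie between the constant region Trbc2 and Trbv31, a V segment at the far end of the locus. Mature NK cells belong to the innate lymphocytes and do not depend on a rearranged T cell receptor, though they share many regulators with T cells. Ikaros family proteins are known regulators of lymphocyte genes, in T cells among others.

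Of the 5 peaks credited to Dad1 and Prss2, 4 lay at the constant ends of the alpha and beta chain loci. Of the 4 peaks credited to Dad1, 3 formed a group of 5.15 kb at the constant region of the alpha chain, Trac, and 1 lay farther into the locus. The peak credited to Prss2 lay between Trbc2 and Trbv31 and was the strongest of the 7, at 13.9-fold over its local background (8.45 to 21.9). The other 6 peaks had folds from 5.39 to 8.43. All 7 intervals overlapped one another, that of Prss2 included. Overlap does not by itself show that folds are alike, and the order of the peaks was not tested. The fold enrichment and the q-value of a peak are the authors' own values throughout, on the mm10 build.

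**Figure D1:**
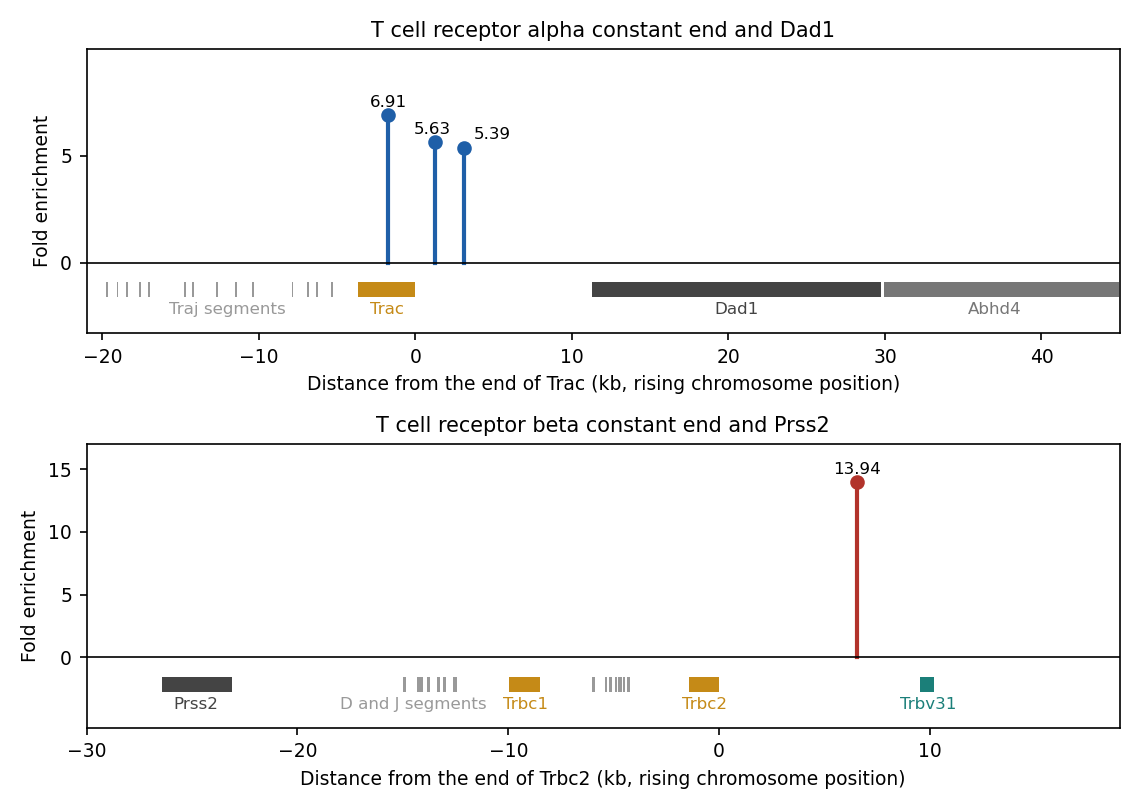
Fold enrichment of the Aiolos peaks (vertical axis, linear, each stem at a summit) against distance in kb from the end of Trac (top) and of Trbc2 (bottom), with genes and segments as boxes below the line. The 3 peaks at Trac stand at 6.91, 5.63 and 5.39 on the Trac side of Dad1, and the single beta peak stands at 13.9 between Trbc2 and Trbv31; the fourth alpha and delta peak lies outside the window.

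At the alpha chain, the group began inside Trac. Dad1 peak 2, numbered here by position, lay on chromosome 14 at 54222368 to 54222759, with its summit 1.96 kb past the start of Trac. It overlapped Trac, and the authors' annotation classed it as intronic. Its summit held 14 tags (sequenced fragments piled at the highest point) over a local background of 1.17 tags, a fold of 6.91 (3.99 to 11.3) with a -log10 q of 7.06. That background was the highest of the 7 peaks. Set against the lowest background of the list, 0.186 tags, the same 14 tags would give 12.6-fold, above the interval of the deposited fold.

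Both remaining peaks of the group lay past the end of Trac in the interval before Dad1. Dad1 peak 3, at 54225359 to 54225573, had its summit 1.28 kb past the end of Trac and held 6 tags over 0.242, a fold of 5.63 (2.58 to 11.3) and a -log10 q of 3.998. Dad1 peak 4, at 54227108 to 54227518, had its summit 3.11 kb past the end of Trac and held 7 tags over 0.485, a fold of 5.39 (2.57 to 10.4) and a -log10 q of 3.29. They were the weakest of the 7 peaks: 29.7% of all peaks had a lower fold than Dad1 peak 3 and 26.3% a lower fold than Dad1 peak 4. Gaps of 2.60 kb and 1.54 kb separated the 3 peaks of the group, and the edge of peak 4 lay 7.97 kb from Dad1.

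Dad1 peak 1 stood apart from this group, 160.6 kb before it. It lay on chromosome 14 at 54061359 to 54061721, within the RefSeq entries of both the alpha and the delta chain loci. No annotated gene or segment overlapped it. The nearest V segment entry before it was the pseudogene Trdv3, 60.1 kb away, and its summit lay 13.4 kb before Trdv4, a V segment of the delta chain, and 81.2 kb before the delta constant region Trdc. The edge of the non-coding RNA gene Gm30275 was 5.72 kb away. The summit held 9 tags over the lowest background of the list, a fold of 8.43 (4.31 to 15.3) and a -log10 q of 9.21, and 78.7% of all peaks had a lower fold. The start of Dad1, whose name it carries, was 192.2 kb away.

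At the beta chain, 1 peak was called in the whole locus. The Prss2 peak lay on chromosome 6 at 41554526 to 41554966, with its summit 6.52 kb past the end of Trbc2 and 2.99 kb before Trbv31. The summit held 17 tags over 0.291, and its -log10 q was 20.3. By fold it ranked 25 among all 1404 peaks, and 4 among the 194 peaks that the authors' annotation placed in distal intergenic sequence, whose median was 5.90-fold. Prss2 itself starts 32.7 kb away on the other side of the D, J and constant segments.

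Lef1 and Cd5 each carried 1 peak, outside the gene. The Lef1 peak, on chromosome 3 at 131057103 to 131057372, lay 53.1 kb upstream of the annotated start in intergenic sequence. It held 7 tags over 0.242, a fold of 6.44 (3.07 to 12.4) and a -log10 q of 5.32. No peak overlapped the 114.1 kb of the Lef1 gene. The nearest gene entry to the Lef1 peak was the non-coding RNA gene Gm36603, 44.3 kb away between the peak and Lef1.

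The Cd5 peak, on chromosome 19 at 10709790 to 10710112, overlapped the neighbouring gene Vps37c, which encodes a subunit of the ESCRT-I sorting complex. The authors' annotation classed the peak as intronic. It held 6 tags over the lowest background of the list, a fold of 5.90 (2.70 to 11.9) and a -log10 q of 4.67. The authors' distance of 12.0 kb runs to a transcript that starts inside Cd5. From the outer start of the RefSeq gene the peak was 28.9 kb away, past the end of Cd5 by 7.995 kb. Vps37c had a peak of its own at its promoter, of 6.60-fold (3.27 to 12.3, 8 tags), 20.7 kb from the Cd5 peak.

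The starts of all 4 genes lay outside the peaks. The promoter sequences of Cd5, Lef1 and Prss2 are shown. No peak reached the RefSeq starts of these genes, although peaks were credited to the genes. The Cd5 window lies at the outer start of the gene and not at the inner transcript start from which the authors measured. They run from 250 bases before to 50 after a RefSeq start (GRCm38.p6, the same assembly as mm10), 5′ to 3′ on the gene's strand. Capitals mark GGGAA, the core of the Ikaros family motif, or its reverse complement. For Lef1, which has 4 such windows, the one nearest the authors' annotated start is given. No peak reached the start of Dad1 either, and its window, which held no GGGAA, is not shown. The windows are chr19:10738925-10739224 on the minus strand for Cd5, chr3:131110073-131110372 on the plus strand for Lef1 and chr6:41521526-41521825 on the plus strand for Prss2.
Cd5: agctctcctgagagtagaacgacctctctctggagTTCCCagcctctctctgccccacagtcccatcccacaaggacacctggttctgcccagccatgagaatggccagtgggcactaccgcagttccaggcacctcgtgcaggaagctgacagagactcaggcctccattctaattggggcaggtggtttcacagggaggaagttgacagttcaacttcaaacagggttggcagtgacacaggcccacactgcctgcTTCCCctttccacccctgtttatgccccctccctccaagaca
Lef1: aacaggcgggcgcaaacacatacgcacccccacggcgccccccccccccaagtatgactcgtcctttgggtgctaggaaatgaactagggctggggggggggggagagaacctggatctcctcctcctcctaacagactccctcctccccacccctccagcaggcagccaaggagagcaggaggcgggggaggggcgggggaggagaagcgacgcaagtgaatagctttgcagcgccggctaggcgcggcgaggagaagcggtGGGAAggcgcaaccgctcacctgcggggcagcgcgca
Prss2: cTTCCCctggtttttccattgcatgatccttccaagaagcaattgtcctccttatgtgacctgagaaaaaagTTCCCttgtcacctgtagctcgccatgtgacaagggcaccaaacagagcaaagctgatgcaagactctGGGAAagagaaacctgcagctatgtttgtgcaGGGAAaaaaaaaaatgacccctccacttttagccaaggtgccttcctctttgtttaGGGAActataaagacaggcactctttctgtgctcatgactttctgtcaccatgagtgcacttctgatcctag

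The core GGGAA, searched on both strands, occurred 2 times in the Cd5 window, 1 time in the Lef1 window and 5 times in the Prss2 window, and 0 times in the Dad1 window. It was found in 62.7% of all 32851 promoter windows of the RefSeq table, so a match is common. The longer form TGGGAA, which contains the core, occurred once in each of the windows of Cd5, Lef1 and Prss2 and in 25.6% of all windows. The ETS core GGAAG, which can overlap GGGAA, was found in these 3 windows and in 71.4% of all. None of the 4 windows held TGANTCA (AP-1, in 7.81% of all windows), CTTTGA (TCF/LEF, 16.0%) or TGTGGT (RUNX, 16.8%). Matches describe these letters only, and the sequence under the 7 peaks was not read here.

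**Figure D2:**
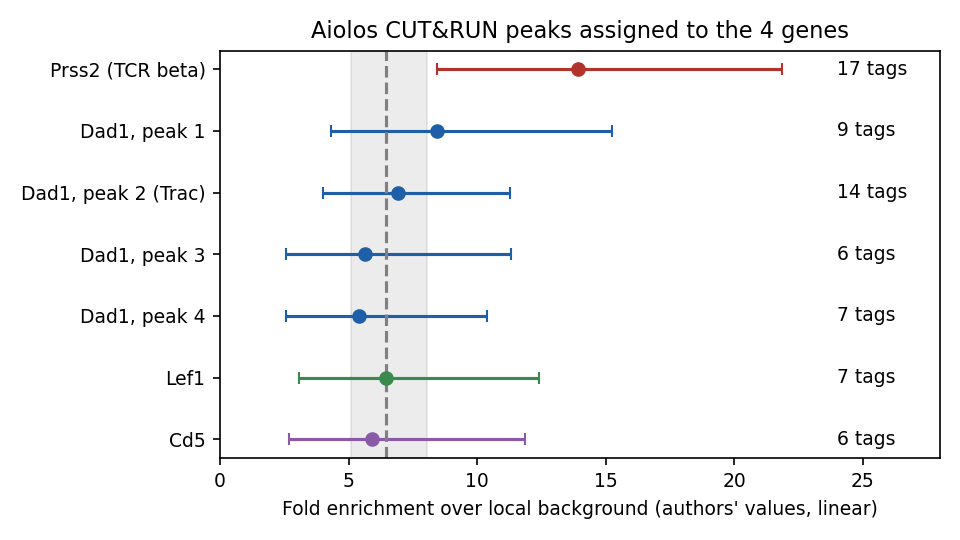
Fold enrichment (horizontal axis, linear) of the 7 peaks with exact Poisson 95% counting intervals and the tags at each summit, against the median of all 1404 peaks (dashed line, 6.44) and their quartiles (grey band, 5.08 to 8.05). The interval of the Prss2 peak alone, among these 7, starts above the grey band.

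In strength the 7 peaks, taken by their median, sat at the middle of the list. Singly they ranged from Dad1 peak 4, with 26.3% of all peaks lower in fold, to the Prss2 peak, with 98.2%. Their median fold was 6.44, and the median of all 1404 peaks was also 6.44. The summits held 6 to 17 tags with a median of 7, and those of all peaks 4 to 63 tags with a median of 8. Many peaks share the same values at this depth: 83 peaks of the list had the tags and fold of the Cd5 peak, 29 those of the Lef1 peak and 30 those of Dad1 peak 1, each count including the peak itself. The background was at its lowest value for 2 of the 7 peaks, Dad1 peak 1 and Cd5, and for 26.0% of all peaks.

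Among peaks of the same annotation class at other genes, those nearest in fold gave no closer neighbour for Prss2 than 1700017B05Rik at 13.5-fold, followed by Adrb1 and Kif2c at 12.6-fold each. The strongest Dad1 peak was equalled at 8.43-fold by 5 intergenic peaks, among them the one credited to Cd44, a hyaluronan receptor. The Lef1 peak was equalled by 6 intergenic peaks, 1 of them credited to Gzmb, the granzyme B gene. The Cd5 peak was equalled by 11 intronic peaks, among them those of Hdac4 and Hivep2. With 1 library these are equal values of fold and not a shared pattern over samples.

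In position the 7 peaks were all remote. None had its centre within 1000 bp of the annotated start, where 64.8% of all peaks lay. All 7 had their edge more than 10 kb from that start, against 18.5% of all peaks, and 5 of the 7 were in distal intergenic sequence, against 13.8%. None overlapped the gene it was credited to, while 59.8% of all peaks did. These shares are given as a description, since the place of the peaks was part of the choice. None of the 1404 peaks was credited to any of the 686 antigen receptor segment entries of the RefSeq table, pseudogenes included, so a peak inside such a locus carries the name of another gene.

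**Figure D3:**
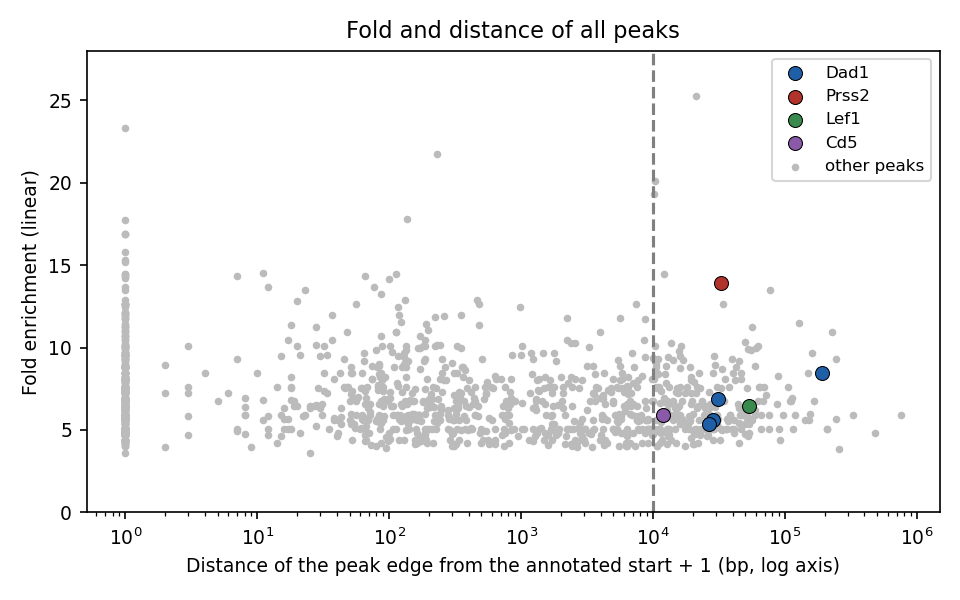
Fold enrichment (vertical axis, linear) against the distance of the peak edge from the annotated start plus 1 bp (horizontal axis, log) for all 1404 peaks, with those credited to Dad1, Prss2, Lef1 and Cd5 in colour and the dashed line at 10 kb. All 7 coloured points lie to the right of the line, with Prss2 at 13.9 and the others between 5.39 and 8.43.

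The T cell receptor loci were set beside the other antigen receptor loci, each with a margin of 20 kb. The alpha and delta locus, 1796 kb from the first to the last segment, held 4 peaks, or 2.18 per Mb with the margin, where chromosome 14 as a whole had 0.409 per Mb of its annotated span. Without the margin it held 2 peaks, or 1.11 per Mb, since Dad1 peaks 3 and 4 lie past the last segment. The beta locus, of 667.1 kb, held 1 peak, or 1.41 per Mb, where chromosome 6 had 0.361 per Mb. Both loci were taken up because member peaks fall there, and every peak counted in them is a member peak. The densities above those of the chromosomes, and above those of loci without a peak, therefore follow from the choice. They carry no test, and with so few peaks they have wide counting error. The T cell receptor gamma locus (174.3 kb) and the immunoglobulin heavy chain (2754 kb), kappa (3171 kb) and lambda (199.1 kb) loci held 0 called peaks. Their chromosomes had 0.648, 0.400, 0.361 and 0.337 peaks per Mb, in that order. At such rates loci of these lengths can hold none without standing out. A locus with no called peak is one where no region passed the authors' cutoff.

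Close groups of peaks like the one at Trac were few in the list. Joining peaks with gaps of up to 5 kb gave 12 groups of 3 or more peaks in the list, a limit chosen after the values had been seen. In 3 of these groups no peak was centred within 1000 bp of an annotated start. They were the 3 peaks at Trac, 3 peaks credited to 4933433H22Rik on chromosome 17 and 4 peaks credited to Klrb1b, a lectin-like receptor gene of NK cells on chromosome 6.

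Other peaks lay within 500 kb of the Trac group and of the Cd5 peak, and none within that distance of the Lef1 and Prss2 peaks. The nearest peak of another gene to the Trac group belonged to Prmt5, an arginine methyltransferase gene, 289.7 kb from Dad1 peak 4 and of 6.31-fold at its promoter. Prmt5 had another peak of 5.05-fold, and within 500 kb of the group there were also peaks credited to Haus4 (8.85-fold at its promoter), 4931414P19Rik (4.14-fold) and Cebpe (4.97-fold). The gene AW112010 had 2 peaks, of 5.47-fold and 7.83-fold, the nearer one 334.7 kb from the Cd5 peak. The nearest peak of another gene was 1332 kb away for Lef1, credited to Egf, and 3002 kb away for Prss2, credited to Luc7l2.

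Of 32 genes of T cell identity, among them those for the CD3 chains, CD4, CD8, Tcf7, Bcl11b and Gata3, only Lef1 and Cd5 had an assigned peak. The share was 6.25% (95% exact Clopper-Pearson interval 0.766 to 20.8), against 5.38% of all 21900 protein-coding genes. Both were chosen for having a peak, and the remaining 30 genes had 0. None of the 32 had a promoter peak, against 3.79% of all protein-coding genes, or an assigned peak with its edge within 10 kb of the start, against 4.57%. Of the 8 T cell markers Cd3d, Cd3e, Cd3g, Cd4, Cd8a, Cd8b1, Cd5 and Cd6, 1 had an assigned peak, the member Cd5. Of 8 NK cell markers 4 did, Klrb1c, Klrd1, Klre1 and Gzmb, while Ncr1, Eomes, Tbx21 and Prf1 did not. The 5 B cell markers and the 5 myeloid markers had 0. Beside these counts stands the 5.38% of all protein-coding genes with an assigned peak. An assigned peak can lie far from the gene, and the marker counts were not tested. Peaks do not measure which cells a culture holds, and its content of T cells was not tested.

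The genes that relay the T cell receptor signal, many of which also act downstream of NK receptors, had peaks at 5 of 35 (14.3%, exact interval 4.81 to 30.3), against 5.38% of all protein-coding genes. With the peaks above the median fold alone, or with those whose -log10 q reached the median, 1 of the 35 had a peak (2.86% in each set), against 2.73% and 2.89% of all protein-coding genes. Malt1, which encodes a paracaspase, had a promoter peak of 6.31-fold (3.23 to 11.4, 9 tags), and Nfatc3, a calcium-regulated transcription factor gene, a promoter peak of 5.05-fold (2.41 to 9.73, 7 tags). Lcp2, the gene of the adaptor SLP-76, was credited with the strongest of the list, 8.85-fold (4.66 to 15.6, 10 tags). That peak lay 12.6 kb upstream, outside Lcp2, and was classed as intronic. Nfatc1 had an intronic peak of 4.83-fold and Prkcq, the protein kinase C theta gene, a peak of 5.06-fold inside the gene 20.8 kb from the annotated start. The 2 promoter peaks are 5.71% of the list, against 3.79% of all protein-coding genes. Among the 30 genes without an assigned peak were Lck, Zap70 and Lat.

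Counting any peak over a gene or within 10 kb of it, whatever name it carried, gave 7 of 35 signalling genes (20.0%, exact interval 8.44 to 36.9), against 8.43% of all protein-coding genes. By this count Lcp2 dropped out and 3 genes came in, chosen for naming after their values were seen. The adaptor gene Grap2 had a peak of 7.59-fold inside it that was credited to the microRNA gene Mir6957. The adaptor gene Lat had a peak of 5.68-fold beside it credited to Spns1, and Fyb one of 5.39-fold credited to C9. For T cell identity genes the same count gave 1 of 32, Cd5 (3.12%, exact interval 0.0791 to 16.2).

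Partners of Lef1 were taken as a list of 19 Wnt and TCF/LEF genes, of which 3 had an assigned peak (15.8%, exact interval 3.38 to 39.6), against 5.38% of all protein-coding genes. Lef1 is among the 3 and was chosen for having a peak; without it the count was 2 of 18 (11.1%, exact interval 1.38 to 34.7). These were Tcf7l2, a relative of Lef1, with a peak of 5.90-fold (2.70 to 11.9, 6 tags) inside the gene 27.003 kb from the annotated start, and Gsk3b, a kinase that marks beta-catenin for degradation, with a promoter peak of 5.41-fold (2.77 to 9.78, 9 tags). Tcf7, the gene of the T cell factor TCF1, had none, nor had Ctnnb1, the beta-catenin gene. By assigned peaks, the intervals of all 3 list shares include the share of all protein-coding genes. The T cell identity and Wnt shares count members chosen for having a peak. By overlap with the gene or its flanks, the signalling interval, 8.44 to 36.9, starts just above the 8.43% of all protein-coding genes. Inclusion does not show that shares are alike, and no share was tested. The lists were chosen with earlier results of these data known.

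**Figure D4:**
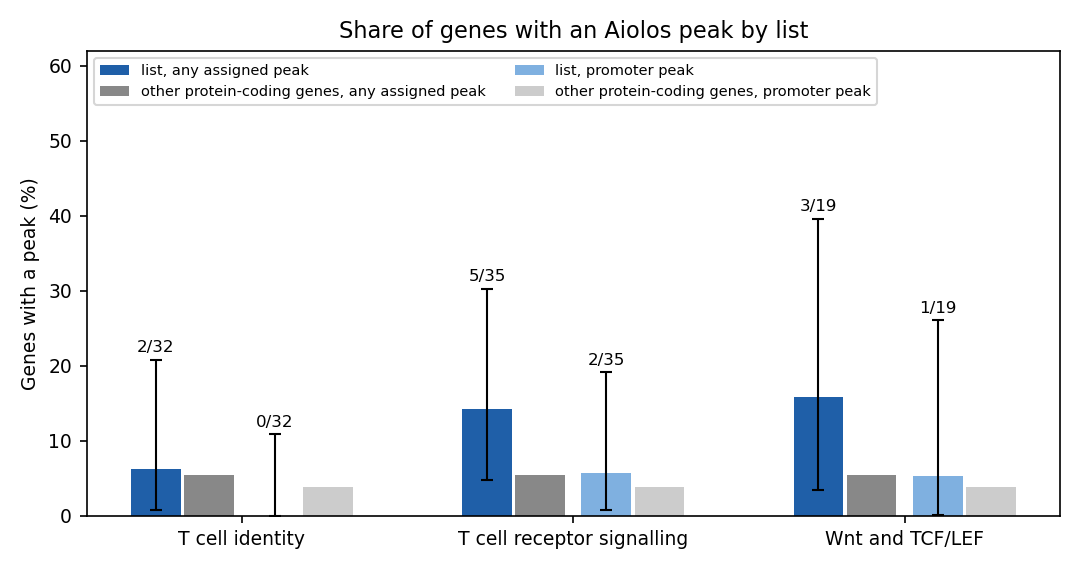
Share of genes with an Aiolos peak (vertical axis, percent) in 3 gene lists beside the other protein-coding genes, for any assigned peak and for promoter peaks alone, with exact Clopper-Pearson 95% intervals on the lists and the genes counted above each bar. The T cell identity bar stands at 6.25% for any assigned peak, beside 5.38% of other genes, and at 0 for promoter peaks.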

How the data were processed

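CUT&RUN libraries of cultured mouse splenic NK cells, 1 with the Aiolos antibody and 1 with no primary antibody, are represented by 1 peak list. Per the submitters' processing notes, MACS2, Bowtie2, Picard and SAMtools were used on mm10. Not given in the sources used here are the q cutoff, the duplicate filter and whether the second library served as control. Library totals were not analysed here. The signal value of a peak, per the file headers a column of the authors' list, is taken as the fold (ratio) of summit pileup plus 1 to local background plus 1. Beside it the authors deposited the -log10 of the p-value and q-value. In the deposited list the score equals the -log10 q multiplied by 10 and truncated.

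Summit tags and background were solved from the fold and the Poisson p-value (largest error 1.75e-05 in -log10 p). The step was also run on simulated peaks built with the same formula. That run checks the arithmetic and not the form of the deposited values. Exact Poisson intervals hold the background fixed. Genes, segments and promoter windows come from RefSeq tables (GRCm38.p6), and all 4 members matched. In the signalling list 35 of 36 names matched, the other being an older name of Grap2. No test was run between libraries. The members, lists and alternatives were chosen with earlier results of these data known. The genes named were the members, list genes with a peak, entries beside the receptor locus peaks, neighbours within 500 kb and the peaks nearest in fold. Python 3.11.15, pandas 2.3.3 and SciPy 1.17.1 were used.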

Additional observations from a re-analysis of the deposited data

How the results depend on the processing

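Of the 7 member peaks, 4 remained among the 727 whose -log10 q reached the list's median, 3 among the 687 above the median fold, 7 among the 1325 with a -log10 q of at least 2, and 0 within 10000 bp of the start. In the first 2 of these sets the alpha and delta locus held 2 peaks, and with no margin around its segments also 2, since Dad1 peaks 3 and 4 lie past Trac; the beta locus held 1 under all 5 alternatives. T cell identity genes with a peak numbered 1 in the set by median -log10 q, 0 above the median fold, 0 within 10000 bp of the start, 0 at promoters and 1 by overlap with the gene or its flanks. Signalling genes numbered 1 in both stricter sets, 3 within 10000 bp and 2 at promoters. Wnt and TCF/LEF genes, whose alternatives were chosen after seeing the data, numbered 1 in the set by median -log10 q, 0 above the median fold, 1 within 10000 bp and 1 at promoters. Fewer peaks enter the stricter, distance-limited and promoter sets by construction. The overlap count instead uses all peaks, whatever name they carry. The share of all protein-coding genes with a peak was 2.89% in the set by median -log10 q and 2.73% above the median fold. It was 4.57% within 10000 bp of the start, 3.79% at promoters and 8.43% by overlap with the gene or its flanks. The lists are short, so counts of 0 or 1 cannot be told from these shares, and the drops are no result about the lists. The median fold of the member peaks ran from 6.17 without the peaks of Prss2 to 8.43 among peaks above the median fold. Set against the lowest background, Dad1 peak 2 had 12.6-fold against 6.91 as deposited. With 6 to 17 tags per summit, counting intervals limit every fold given. No paired analysis was possible because each group is a single library.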
